A study of Mus musculus with 4 samples.

Results

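The glutathione and NRF2 antioxidant genes are a set of 10 genes chosen by symbol: *Nfe2l2*, *Keap1*, *Nqo1*, *Gclc*, *Gclm*, *Gsr*, *Gpx1*, *Gpx4*, *Txnrd1* and *Prdx1*. All 10 were found among the 18364 genes of the table. They were measured by RNA sequencing in large peritoneal macrophages (LPMs), which live in the peritoneal cavity, double-sorted from C57BL/6 mice aged 8 weeks. The study gates LPMs as cells high in F4/80 and low in MHC class II, within CD45+ B220- CD11b+ CD115+ cells. The labels give 2 libraries as wild type (WT) and 2 as *Rxra*-/- (Rxra-KO). In the study, *Rxra*, which encodes the nuclear receptor RXRα, was deleted by Cre under control of the *Lyz2* (LysM) locus, so the deletion concerns *Lyz2*-expressing myeloid cells, and the floxed *Rxra* allele without Cre served as the control. Whether each library came from a single mouse or from pooled mice is not given in the sources used here, so the *p* values concern only these libraries. In limma the spread of each gene was drawn towards that of genes of like level. This prior counted as 227 degrees of freedom, against 2 from the replicates of the gene itself. Standard errors, intervals and *p* values from limma therefore rest mostly on all genes, and little on the replicates of a single gene. The comparison asks how loss of RXRα changes the levels of the genes that keep glutathione reduced and remove peroxides.

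NRF2, the product of *Nfe2l2*, is a transcription factor that KEAP1 holds in the cytoplasm and marks for degradation, and that escapes when oxidants or electrophiles modify KEAP1. In the nucleus NRF2 pairs with small MAF proteins and binds antioxidant response elements near genes that make glutathione, regenerate it and supply its reducing power. Glutathione is the main thiol of the cell, and peroxidases use it to reduce hydrogen peroxide and lipid peroxides, while thioredoxin and the peroxiredoxins form a parallel system. Macrophages make oxidants themselves through their NADPH oxidase, and take up oxidised lipids and dying cells.

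The 4 libraries held between 629030 and 1047021 reads, and a single read was worth a normalised read count of 0.993 to 1.51. Normalised read counts are reads, with 0.5 added, per scaled library size. WT held 20 and 28 reads of *Rxra*, and Rxra-KO held 33 and 77 (log2 difference 0.99, limma adjusted *p* = 0.183), so it was not lower where the labels give a deletion, and groups are named here as labelled. The table gives 1 value per gene, and reads of undeleted exons cannot be separated. *Lyz2*, which holds the Cre insertion, fell by 1.03 on the log2 scale in Rxra-KO (limma adjusted *p* = 0.00163), with -0.88 without WT replicate 1 and -1.18 without WT replicate 2, where it was not called. Markers of LPMs were present in all libraries. Their summed normalised read count was 37562 and 39688 in WT and 19914 and 21915 in the libraries labelled Rxra-KO. Most of each sum came from *Prg4*, with 28429 and 29683 in WT and 15129 and 16567 in Rxra-KO. Of the 10 markers 6 were called lower, among them *Adgre1* and *Itgam*, which encode F4/80 and CD11b, antigens of the gate, and *Icam2*, which encodes CD102. The log2 difference was above 0 for 3 of the 10, and 0 were called higher. Groups did not overlap for 2 of these 3. Across all genes, 18.8% did not overlap and were higher in Rxra-KO. Markers of small peritoneal macrophages and monocytes summed to 432 and 226 in WT and to 4375 and 5895 in Rxra-KO, with 7 of 9 called higher. Ribosomal protein genes had a median log2 difference of -0.65, and 14 of 58 were called lower. Markers of 8 other cell types summed to between 4.54 and 121 per library, with 3 of 35 called, against 2.29% of all genes. *Cd2* and *Cd209a* were higher in Rxra-KO and *Cd247* was lower. Dendritic cell markers summed to 56.0 and 59.7 in WT and to 102 and 121 in Rxra-KO. Mesothelial markers summed to 67.4 and 89.5 in WT and to 56.5 and 59.1 in Rxra-KO. The part of these shifts in any result given here was not tested. In bulk RNA, fewer cells of a type and less RNA per cell cannot be told apart.

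None of the 10 antioxidant genes differed between the groups by the test applied. Calls needed a limma *p* under 0.05 after adjustment over all 18364 genes and an absolute log2 difference of at least 0.6. By this rule 2.29% of all genes were called, 1.32% higher and 0.969% lower in Rxra-KO. Of the 10 genes 0 were called, and 1, *Gsr*, had an unadjusted *p* under 0.05, which 10.1% of all genes had. Other tests run on the same reads (edgeR, DESeq2 and limma voom) also called 0 of the 10, with 1 under an unadjusted *p* of 0.05 in each, although DESeq2 gave an adjusted *p* for 7 of them. The log2 difference was above 0 for 6 of the 10 genes. Its median was 0.16 over the 10 genes, against 0.02 over all genes tested, and 0.13 without *Nqo1*, which had no more than 3 reads in any library. The groups did not overlap for 5 of the 10 genes, 3 higher and 2 lower, and did not overlap for 38.1% of all genes. The 3 higher genes include *Nqo1*, at no more than 3 reads in any library.

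**Figure D1:**
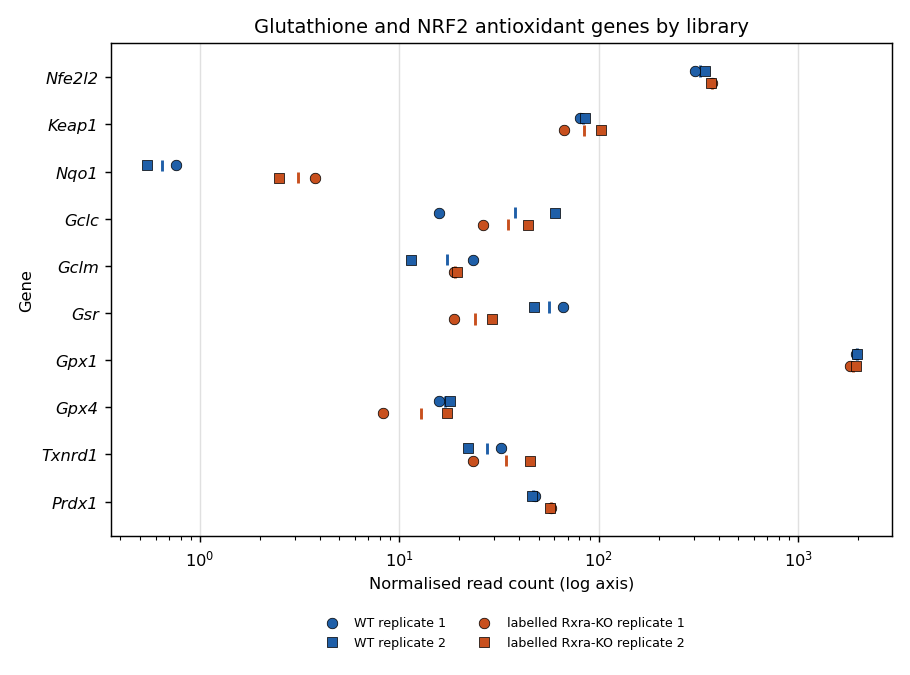
Normalised read count (log axis) of the 10 genes in each of the 4 libraries; circles are replicate 1, squares replicate 2, blue WT and orange the libraries labelled Rxra-KO, and vertical bars are group means. *Gpx1* lies between 1815 and 1973 in all libraries, *Nqo1* at 0 to 2 reads, and *Gsr* is the gene with the widest gap between non-overlapping groups among those above 3 reads.

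The regulators of the pathway were measured with more reads than most of the set. *Nfe2l2*, which encodes NRF2, had normalised read counts of 305 and 341 in WT and 371 and 367 in the libraries labelled Rxra-KO. Both Rxra-KO libraries lay above both WT libraries, by a small margin. Between the groups the log2 difference was 0.19, with a 95% interval of -0.26 to 0.65 (limma adjusted *p* = 0.896). *Keap1*, which encodes the adaptor that delivers NRF2 to a ubiquitin ligase, had 81.0 and 85.2 in WT and 67.0 and 103 in Rxra-KO. The Rxra-KO libraries lay on either side of WT, and the log2 difference was -0.00, with an interval of -0.59 to 0.59 (limma adjusted *p* = 0.999), a value whose sign changed with the tool. *Keap1* shares 11.9% of the 31-base words of its main transcript in GENCODE with an antisense gene. The library kit does not mark strand, so reads of that stretch cannot be assigned to either gene.

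*Nqo1*, a quinone reductase often used as a readout of NRF2, was at the limit of detection. It had 0 reads in both WT libraries and 2 reads in each library labelled Rxra-KO. Both groups were at or below 3 reads, which corresponds to normalised read counts of 2.98 to 4.54 in the 4 libraries, and no fold is given. The exact 95% Poisson interval was up to 3.69 reads for a count of 0 and 0.24 to 7.22 for 2 reads. Such intervals cover counting error only, since copies of one molecule were not told apart. At this depth a low level or a small difference of *Nqo1* could not be measured.

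Glutathione is made in steps of which the first, catalysed by glutamate-cysteine ligase, limits the rate. *Gclc* encodes the catalytic subunit of this enzyme. Its normalised read count was 15.9 and 60.2 in WT and 26.3 and 44.2 in Rxra-KO, from 10, 55, 17 and 44 reads. The WT libraries differed by 3.79 times and enclosed both Rxra-KO libraries, so the groups overlapped fully. The log2 difference was 0.13 with an interval of -0.69 to 0.94 (limma adjusted *p* = 0.981), and leaving out WT replicate 1 or 2 gave -0.80 or 1.06, while edgeR and DESeq2 on the reads gave -0.13 and -0.14. *Gclm* encodes the modifier subunit, which raises the activity of the catalytic subunit. It had 23.5 and 11.4 in WT and 18.8 and 19.4 in Rxra-KO, from 10 to 19 reads. WT again enclosed Rxra-KO, and the log2 difference was 0.21, with an interval of -0.82 to 1.23 (limma adjusted *p* = 0.969), or -0.28 without WT replicate 2. The subunits did not share an order among the libraries, since the WT library that was higher for *Gclc* was lower for *Gclm*.

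*Gsr* encodes glutathione reductase, the flavoenzyme that returns oxidised glutathione to its reduced form with NADPH. Its normalised read count was 65.9 and 47.2 in WT and 18.8 and 29.3 in the libraries labelled Rxra-KO, from 43, 43, 12 and 29 reads. Both Rxra-KO libraries lay below both WT libraries. The group means were 56.5 ± 13.2 and 24.1 ± 7.41 (SD, n = 2), a ratio of 0.426. The log2 difference was -1.21 with a standard error of 0.39 and a 95% interval of -1.98 to -0.44. Its unadjusted *p* of 0.00209 ranked 486 among 18364 genes, and the adjusted *p* of 0.0789 in limma did not pass. The log2 difference stayed between -1.52 and -0.91 with any one library left out and between -1.29 and -1.09 under the other settings tried, and *Gsr* was called under none of them, with adjusted *p* values from 0.0516 to 0.693. This was the furthest from 0 of the log2 differences of the genes that had more than 3 reads.

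The glutathione peroxidases of the set are selenoproteins, in which a UGA codon within the reading frame is read as selenocysteine, the residue that reacts with peroxide. The main coding transcripts in GENCODE (GRCm38) hold 1 such codon in each of *Gpx1*, *Gpx4* and *Txnrd1*, and none in the other 7 genes. The bases around it are given on the coding strand, 5′ to 3′, with the selenocysteine codon in capitals, since it sets these 3 genes apart from the other antioxidant genes. In *Txnrd1* it is codon 498 of 499, the last but one before the stop codon, against codon 47 of 201 in *Gpx1* and codon 73 of 197 in *Gpx4*, where the counts of codons leave out the stop codon.
Gpx1: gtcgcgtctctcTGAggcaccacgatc
Gpx4: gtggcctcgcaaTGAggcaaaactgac
Txnrd1: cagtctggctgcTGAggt

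*Gpx1*, the cytosolic peroxidase that removes hydrogen peroxide, had the most reads of the set, between 1205 and 1972 per library. Its normalised read count was 1961 and 1973 in WT and 1815 and 1959 in the libraries labelled Rxra-KO. All 4 libraries lay close together, and both Rxra-KO libraries were slightly below WT. Their log2 difference was -0.06, with an interval of -0.48 to 0.36 (limma adjusted *p* = 0.981). *Gpx4*, the peroxidase that reduces lipid peroxides within membranes, had 15.9 and 17.9 in WT and 8.28 and 17.4 in Rxra-KO, from 5 to 17 reads. The Rxra-KO libraries differed by 2.10 times, and the higher one lay within WT. The log2 difference of -0.45, with an interval of -1.58 to 0.67 (limma adjusted *p* = 0.907), became 0.04 without Rxra-KO replicate 1 and -0.95 without Rxra-KO replicate 2. Of the 31-base words of its main transcript, 74.1% also occur in other genes, nearly all in the pseudogene *Gpx4-ps2*, so the counting could have moved reads away from *Gpx4* and its level is uncertain.

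The thioredoxin branch was represented by 2 genes. *Txnrd1*, the cytosolic thioredoxin reductase, had 32.6 and 22.2 in WT and 23.3 and 45.2 in Rxra-KO, from 15 to 45 reads. The groups overlapped, and the Rxra-KO libraries differed by 1.94 times. The log2 difference was 0.26 with an interval of -0.57 to 1.09 (limma adjusted *p* = 0.936), or -0.20 without Rxra-KO replicate 2 and 0.73 without Rxra-KO replicate 1. *Prdx1*, a peroxiredoxin that reduces hydrogen peroxide and is itself restored by thioredoxin, had 47.7 and 46.1 in WT and 58.0 and 57.1 in Rxra-KO. Replicates were close in both groups and the groups did not overlap. On the log2 scale the groups differed by 0.29, with an interval of -0.39 to 0.97 (limma adjusted *p* = 0.896). Its main transcript shares 18.1% of 31-base words with other genes, mostly processed pseudogenes, so its level is less certain than that of *Nfe2l2*, *Gclc*, *Gsr*, *Gpx1* or *Txnrd1*, which share 0%.

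**Figure D2:**
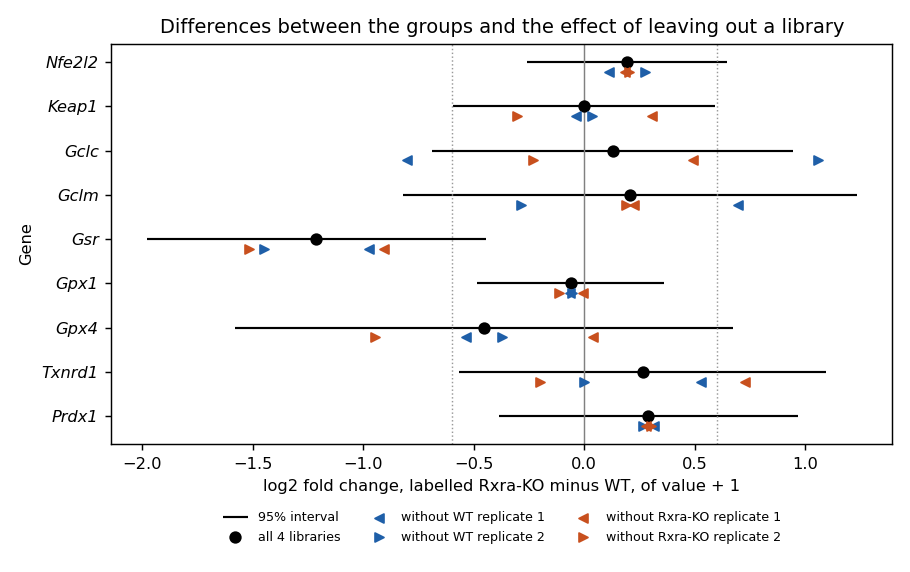
Log2 difference between the groups (labelled Rxra-KO minus WT, normalised read count plus 1) for 9 genes, with 95% intervals from limma; triangles show the value with a library left out, dotted lines mark 0.6 in either direction, and *Nqo1*, at 0 to 2 reads, is not drawn. The interval of *Gsr* lies below 0, those of *Keap1* and *Gpx1* lie within the dotted lines, and leaving out either WT library moves *Gclc* from 0.13 to -0.80 or 1.06.

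The 95% interval of the log2 difference lay within 0.6 in either direction for 2 of the 10 genes, *Keap1* and *Gpx1*. For the others a difference as large as the threshold was inside the interval, so a missing call does not show that the groups were alike. The width of all these intervals came mostly from genes of like level. That of *Keap1* was narrow although its Rxra-KO libraries differed by 1.53 times. Of the 10 genes, 7 had fewer than 60 reads in every library. For one gene taken alone, the lowest two-sided *p* that an exact permutation of these 4 libraries allows is 0.333.

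Levels were compared between genes per kilobase of the main coding transcript, since longer transcripts give more reads. *Gpx1* stood first with 1835 normalised reads per kilobase in WT and 1760 in Rxra-KO, and *Nfe2l2* followed with 131 and 149. *Keap1* (23.0 in WT), *Gsr* (21.1), *Prdx1* (20.4) and *Gpx4* (17.6) came next. The WT libraries of *Gsr*, at 24.6 and 17.7, spanned those of *Keap1* and *Prdx1* and overlapped those of *Gpx4*, so the place of *Gsr* in this order lay within its spread. *Gclc* had 11.1, *Txnrd1* 7.76, *Gclm* 3.12 and *Nqo1* 0.418 per kilobase. In Rxra-KO *Gsr* had 9.0, below the 10.3 of *Gclc* and the 9.70 of *Txnrd1*, within the spread of these libraries. The transcripts that gave the reads are not known, and with the median length of the coding transcripts of each gene *Prdx1* had 71.0 and *Gclm* 17.4 per kilobase in WT, while *Gpx1* and *Nfe2l2* stayed first and second.

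Promoter windows from RefSeq (GRCm38.p6, 250 bases before to 50 after a start) were searched on both strands for TGACNNNGC, the core of the antioxidant response element to which NRF2 binds. Windows were available for 8 of the 10 genes and not for *Gclc* and *Gsr*. The motif occurred in a window of 4 of the 8, *Nfe2l2*, *Gclm*, *Prdx1* and *Txnrd1* (1 of its 3 windows). It occurred in 13.99% of 27025 genes with a window, and in 15.2% (16 of 105) of the further pathway genes with a window, which are given below. Counted by window, the 8 genes held it in 4 of 13, against 12.4% of all 32851 windows. These 4 stretches are shown because they are where the set carries the NRF2 motif near a start, on the strand of the gene from 5′ to 3′, with the motif in capitals. The motif begins 240 bases before the start in *Nfe2l2* and lies 134, 133 and 92 bases before it in *Gclm*, *Prdx1* and *Txnrd1*, where it runs on the opposite strand. The match in *Prdx1* also holds TGACTCA, the site of AP-1 factors. The stretches are chr2:75704860-75704913 on the minus strand, and chr3:122245388-122245466, chr4:116685431-116685509 and chr10:82859079-82859157 on the plus strand.
Nfe2l2: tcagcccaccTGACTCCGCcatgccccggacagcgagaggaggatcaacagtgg
Gclm: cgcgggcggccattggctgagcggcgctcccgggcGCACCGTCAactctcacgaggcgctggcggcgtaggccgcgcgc
Prdx1: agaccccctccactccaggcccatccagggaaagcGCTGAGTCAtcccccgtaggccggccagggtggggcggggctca
Txnrd1: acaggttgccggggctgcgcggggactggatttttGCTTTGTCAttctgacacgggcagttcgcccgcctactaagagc

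None of the 4 genes with the motif was called, and their log2 differences lay between 0.19 and 0.29. Of *Keap1*, *Nqo1*, *Gpx1* and *Gpx4*, whose windows held no match, none was called either. A match is a run of letters and not a measured binding site, and the called pathway genes given next held it in 0 of the 4 that had a window. No window was available for *Abcc1*, *Alox15*, *Hmox1* and *Rac1*. Elements further from the start were not searched.

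The other genes of the pathway were taken from 12 lists, which hold 131 further genes. Of these, 5 were called higher in Rxra-KO, 3 were called lower and 123 were not called, which is 6.11% called against 2.29% of all genes. Their median log2 difference was 0.02, the same as over all genes tested. The lists were chosen with earlier results of these data known, so the higher share called among them is not a test of the pathway. Genes with no more than 3 reads in any library made up 4 of the 131, against 2397 of all genes. The called genes were *Selenop*, *Abcc1*, *Cbr3*, *Hmox1* and *Rac1*, which rose, and *Alox15*, *Aifm2* and *Mthfd1*, which fell. No further gene of glutathione synthesis, glutathione use, thioredoxins, peroxiredoxins or superoxide removal was called.

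**Figure D3:**
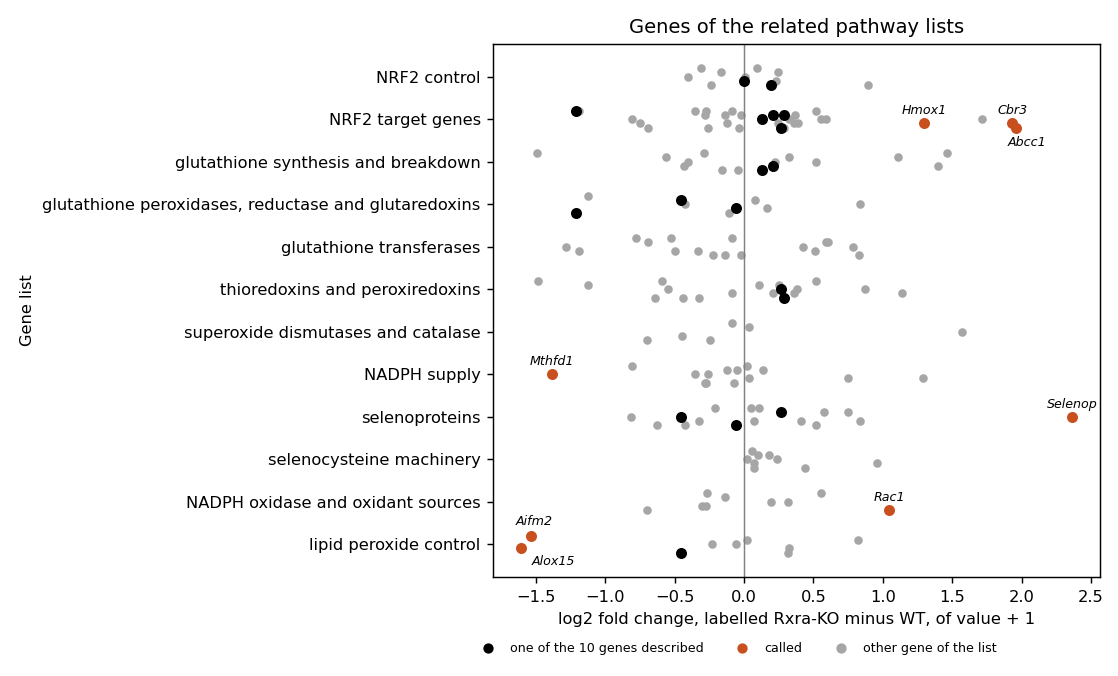
Log2 difference (labelled Rxra-KO minus WT, normalised read count plus 1) of every gene of the 12 pathway lists with more than 3 reads in some library; black points are the 10 genes described, orange points are called genes and a gene can stand in several lists. Called genes lie in 5 of the 12 lists, from -1.61 for *Alox15* to 2.36 for *Selenop*.

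Of the 32 NRF2 target genes, which include 6 of the 10 genes described, 3 were called higher and 0 lower. Of all genes, 1.32% were called higher and 0.969% lower. The median of the target genes was 0.23, against 0.02 over all genes tested. That of the target genes was 0.21 without a gene at no more than 3 reads and with genes lacking reads in a group at their bound. The 26 target genes that are not among the 10 had a median of 0.11. *Hmox1*, the heme oxygenase that opens the heme ring, rose from 59.8 and 61.3 in WT to 178 and 127 in Rxra-KO. Its log2 difference was 1.30 (standard error 0.29, limma adjusted *p* = 0.0011), and it lost its call without Rxra-KO replicate 1, at 1.05. *Abcc1*, a transporter that exports glutathione and glutathione conjugates and that the study names for cholesterol efflux, rose from 88.6 and 55.9 to 257 and 297, a log2 difference of 1.96 (limma adjusted *p* = 1.42e-09). *Cbr3*, a carbonyl reductase, rose from 11.4 and 8.14 to 32.4 and 48.2, from 7, 7, 21 and 48 reads. Its log2 difference of 1.93 (limma adjusted *p* = 0.00831) passed with WT replicate 1 left out but with no other library left out, and was 1.71 without WT replicate 2, 2.21 without Rxra-KO replicate 1 and 1.65 without Rxra-KO replicate 2. The target genes with the most reads, the ferritin chains *Fth1* and *Ftl1* and the NADPH-forming *Idh1*, had log2 differences of 0.39, 0.29 and -0.35 and did not pass. With a library left out these ran from 0.14 to 0.63, from 0.14 to 0.44 and from -0.64 to -0.070. The list of NRF2 control genes had 0 of 11 called. Its members with the most reads, the kinase gene *Gsk3b*, the ligase scaffold *Cul3* and the autophagy receptor *Sqstm1*, which binds KEAP1, had log2 differences of 0.09, 0.01 and 0.25, and that of *Cul3* changed sign with the scaling.

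Genes that make, break down or use glutathione did not pass the test. The synthesis and breakdown list had 0 of 16 called, with *Gss*, the second enzyme of synthesis, at 0.52 (limma adjusted *p* = 0.700) and the peptidases *Dpep2* and *Lap3* at -0.16 and -0.29. The list of peroxidases, reductase and glutaredoxins had 0 of 9 called, with the glutaredoxins *Glrx2*, *Glrx5* and *Glrx3* at 0.16, 0.08 and -0.43, where the sign of *Glrx5* changed with the scaling. Of 18 glutathione transferases and related enzymes 0 were called. *Gsta3* and *Mgst1*, which join glutathione to electrophiles, were at -0.02 and -0.69, and *Glo1*, a glyoxalase that needs glutathione, was at 0.51. Leaving out a library moved *Mgst1* between -1.23 and -0.16 and *Glo1* between 0.087 and 0.93.

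Thioredoxins and peroxiredoxins had 0 of 18 called. *Prdx5*, which had the most reads of that list, had normalised read counts of 1875 and 2440 in WT and 1160 and 1738 in the libraries labelled Rxra-KO. The groups did not overlap, and the log2 difference was -0.59 (limma adjusted *p* = 0.177), or -0.88 without Rxra-KO replicate 2, when it was called, but -0.30 without Rxra-KO replicate 1 and -0.40 without WT replicate 2. With voom the log2 difference of *Prdx5* was -0.58 (limma voom adjusted *p* = 0.0080), and with a replicate block -0.59 (limma adjusted *p* = 0.0091). Both were smaller in size than 0.6, so *Prdx5* was not called there. *Prdx2* and *Prdx6* were at -0.08 and -0.44. Of the 6 superoxide dismutase and catalase genes 0 were called. *Sod1*, the cytosolic dismutase, was at -0.70 (limma adjusted *p* = 0.0872), and was called without WT replicate 1, at -1.03, and with median scaling, voom and a replicate block, but was at -0.36 without WT replicate 2 (limma adjusted *p* = 0.846). The redox sensor *Park7* and the copper chaperone *Ccs* were at -0.25 and 0.03, and the sign of *Ccs* changed with the scaling. In the NADPH list *Mthfd1*, a folate enzyme, fell from 55.3 and 74.3 to 18.8 and 30.3, a log2 difference of -1.39 (limma adjusted *p* = 0.0173), and it was not called without WT replicate 2 (-1.18) or Rxra-KO replicate 1 (-1.06), nor with DESeq2 (-1.43). *Taldo1* and *G6pdx* of the pentose phosphate pathway were at -0.81 and -0.27.

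The selenoprotein list, to which *Gpx1*, *Gpx4* and *Txnrd1* belong, had 1 of 18 genes called. *Selenop* (listed as *Sepp1*), the secreted protein that carries selenium, rose from 485 and 402 in WT to 2455 and 2114 in the libraries labelled Rxra-KO. The groups lay 5.15 times apart in their means, with a log2 difference of 2.36 (standard error 0.22, limma adjusted *p* = 7.10e-20). *Selenok* (listed as *Selk*) and *Txnrd2*, the mitochondrial thioredoxin reductase, were at 0.05 and 0.11, and the sign of *Selenok* changed with the scaling. The machinery that inserts selenocysteine had 0 of 9 called. All 9 log2 differences were above 0, with a median of 0.10, and *Secisbp2l*, *Trnau1ap* and *Sephs1* were at 0.10, 0.02 and 0.07, the last 2 with a sign that changed with the scaling.

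Among the sources of oxidants 1 of 10 genes was called. *Rac1*, a GTPase that can activate the NADPH oxidase, rose from 104 and 168 to 222 and 337, a log2 difference of 1.05 (limma adjusted *p* = 0.00375), and was not called without WT replicate 1 (0.70) or Rxra-KO replicate 2 (0.75), nor with DESeq2 (1.02). *Cybb*, the catalytic subunit of the oxidase, was at -0.70 (limma adjusted *p* = 0.0619) and was called with median scaling, DESeq2, voom, a stricter filter and a replicate block, and *Ncf1*, an organising subunit, and *Xdh*, which encodes xanthine oxidoreductase, were at 0.32 and 0.55. In the list of lipid peroxide control, which holds *Gpx4*, 2 of 9 genes were called, both lower. *Alox15*, a lipoxygenase that adds oxygen to polyunsaturated lipids, fell from 488 and 478 to 181 and 138, a log2 difference of -1.61 (standard error 0.24, limma adjusted *p* = 2.98e-08). *Aifm2*, a reductase that keeps lipid-soluble antioxidants reduced, fell from 97.7 and 78.6 to 18.8 and 46.2, a log2 difference of -1.54 (limma adjusted *p* = 0.00155), and was not called without WT replicate 1 (-1.38) or Rxra-KO replicate 1 (-0.91), nor with DESeq2 (-1.45). *Acsl4* and *Lpcat3*, which load such lipids into membranes, were at -0.23 and 0.02, and the sign of *Lpcat3* changed with the scaling.

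**Figure D4:**
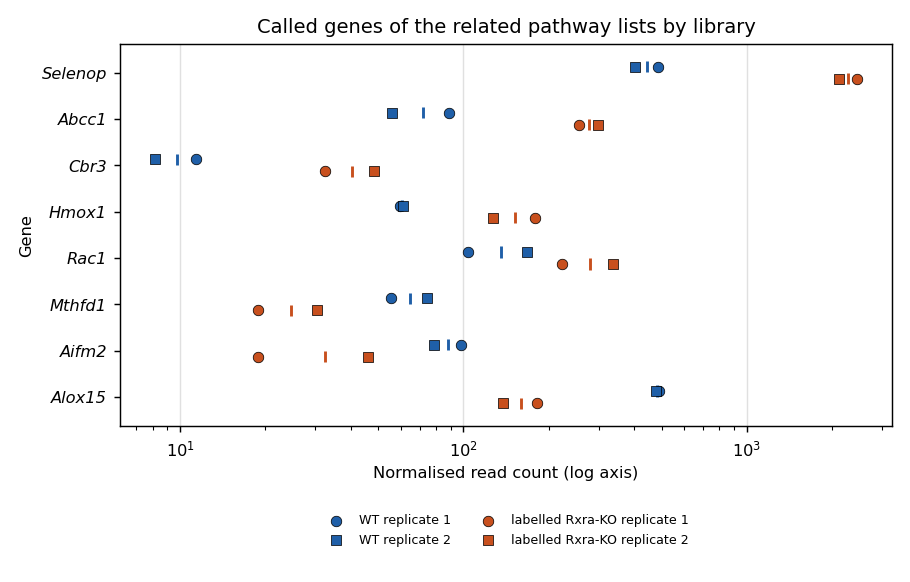
Normalised read count (log axis) of the 8 called genes of the pathway lists in each of the 4 libraries, ordered by log2 difference; circles are replicate 1, squares replicate 2, blue WT and orange the libraries labelled Rxra-KO, and vertical bars are group means. The groups do not overlap for any of the 8 genes, and *Selenop* shows the widest gap, from 402 to 485 in WT up to 2114 to 2455. These genes are drawn because they were called in this comparison, so their separation is not a further result. Over all genes, the groups do not overlap for 38.1%.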

How the data were processed

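RNA of sorted LPMs was sequenced in 2 WT and 2 Rxra-KO libraries, made with a SMART-Seq v4 kit. Per the study's methods and the submitters' processing notes, transcripts were quantified with Kallisto (0.43.0), summarised to genes with tximport, filtered on low abundance and scaled by TMM; the named reference is GRCh38, although the table carries mouse symbols. The deposited values are a normalised read signal per gene and library, equal to (reads + 0.5) over a scaled library size. All values gave whole reads within 0.001 (100%). A mouse build for these RNA libraries is not given in the sources used here, and GRCm38 was used for sequences only.

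Values were tested as log2(value + 1), which understates changes of low genes, with limma 3.58.1 (R 4.3.3, mean-variance trend, no covariate, two-sided, Benjamini-Hochberg over 18364 genes). A value of at least 1 in 2 libraries was required, which removed 0 genes. Alternatives used edgeR 4.0.16, DESeq2 1.42.0 and voom on the whole reads. Scripts were checked on simulated data. The 10 genes and all lists were chosen with earlier results of these data known. The text names all 10 genes, called genes of the pathway lists and up to 3 further genes per list with the highest mean value. Of 141 listed further pathway genes, 131 were in the table; older symbols were matched where needed, and the others were not analysed here. The deviations of same-numbered replicates had a correlation of 0.0629 over 10049 genes. Counting error is part of each deviation, so this cannot exclude pairing. Libraries that did not cluster with their group were left out by the authors.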

Additional observations from a re-analysis of the deposited data

How the results depend on the processing

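Leaving each library out in turn and the other settings tried called 0 of the 10 antioxidant genes throughout, and 122 of 136 values of these genes kept their sign and their side of the threshold. The other 14 changed sign, all in *Keap1*, *Gclc*, *Gclm*, *Gpx4* and *Txnrd1*. The number of called pathway genes was 8, and with single libraries left out it ranged from 4 to 7 (4 without Rxra-KO replicate 1). It was 5 with DESeq2, which gave *Cbr3* no adjusted *p*, and 0 without a mean-variance trend, when 0 genes of the table were called, with 1579 at an unadjusted *p* under 0.05. Among all genes, 421 were called, 246 with DESeq2 and 236 to 377 with a library left out, the lowest without WT replicate 2 and 244 without Rxra-KO replicate 1. The causes were not tested. Median scaling moved the median log2 difference of all genes from 0.02 to -0.06. With 10 or fewer reads, as for *Nqo1*, depth limited any comparison.

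Whether the numbers in the titles pair the libraries is not given in the sources used here. Both libraries numbered 1 held fewer reads (652542 and 629030) than both numbered 2 (947372 and 1047021). With a replicate block, 540 genes were called in place of 421, 10 pathway genes in place of 8 (*Cybb* and *Sod1* were added), and 0 of the 10 antioxidant genes, with *Gsr* at an adjusted *p* of 0.0516.

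Log2 differences that changed sign are given by setting. With pseudocount 5 *Keap1* was at 0.00069. With edgeR *Keap1* was at 0.048 and *Gclc* was at -0.13. With DESeq2 *Keap1* was at 0.016, *Gclc* was at -0.14, *Cul3* was at -0.014, *Ccs* was at -0.0040, *Selk* was at -0.0044 and *Lpcat3* was at -0.0027. With voom *Keap1* was at 0.031. With median scaling *Cul3* was at -0.072, *Glrx5* was at -0.00099, *Ccs* was at -0.044, *Selk* was at -0.028, *Trnau1ap* was at -0.058, *Sephs1* was at -0.0035 and *Lpcat3* was at -0.060. With a library left out, the range was -0.31 to 0.30 for *Keap1*, -0.80 to 1.06 for *Gclc*, -0.28 to 0.70 for *Gclm*, -0.95 to 0.041 for *Gpx4*, -0.20 to 0.73 for *Txnrd1*, -0.18 to 0.37 for *Gsk3b*, -0.080 to 0.095 for *Cul3*, -0.016 to 0.51 for *Sqstm1*, -0.56 to 0.24 for *Dpep2*, -0.037 to 0.37 for *Glrx2*, -0.11 to 0.26 for *Glrx5*, -0.15 to 0.10 for *Gsta3*, -0.52 to 0.028 for *Park7*, -0.15 to 0.22 for *Ccs*, -0.72 to 0.18 for *G6pdx*, -0.30 to 0.40 for *Selk*, -0.094 to 0.30 for *Secisbp2l*, -0.084 to 0.13 for *Trnau1ap*, -0.53 to 0.68 for *Sephs1*, -0.58 to 0.11 for *Acsl4* and -0.038 to 0.076 for *Lpcat3*. Other uncalled genes kept their sign but moved by over 1.5 times. Among the antioxidant genes, *Nfe2l2* ran from 0.11 to 0.27 and *Gpx1* from -0.12 to -0.0059. Among the pathway genes, the ranges were -0.57 to -0.012 for *Lap3*, 0.23 to 0.81 for *Gss*, -0.68 to -0.18 for *Glrx3*, -0.13 to -0.034 for *Prdx2*, -0.69 to -0.19 for *Prdx6*, 0.054 to 0.16 for *Txnrd2*, 0.16 to 0.47 for *Ncf1* and 0.32 to 0.79 for *Xdh*.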

Other observations

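The WT libraries stood further apart for *Gclc*, with 10 and 55 reads, than for nearly all genes measured with as many reads. Their normalised read counts differed by 1.92 on the log2 scale, against a median of 0.39 over 2649 genes whose mean WT reads were within 1.5 times that of *Gclc*. Of these genes, 0.680% were at least as far apart. *Gclc* was singled out after its values were seen. In the libraries labelled Rxra-KO the difference in *Gclc* was 0.75, which 19.4% of genes of like read number reached. *Gclm*, the partner subunit, differed by 1.04 in WT in the opposite order, which 23.0% of genes of like read number reached. At the other end, *Prdx1* differed by 0.05 and 0.02 between the replicates of the groups, against medians of 0.38 and 0.33 for genes of like read number.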
